A study of Schizosaccharomyces pombe with 4 samples.

Results

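The genes described here encode the mating pheromones and mating-type proteins of fission yeast, Schizosaccharomyces pombe, together with genes that the array names for mating-type switching or silencing. They were chosen by words in the array's own gene descriptions (m-factor, p-factor precursor, mating-type or mating type), which picked 13 of 4997 array genes. Of these, 4 are pheromone precursors, 2 are mating-type polypeptides, and the other 7 are a receptor, a pheromone response protein, 2 switching proteins and 3 silencing proteins. Messenger RNA was measured in a strain deleted for red2 (SP744, 2 arrays) and in wild type (FY12806, 2 arrays). Cultures of both strains grew logarithmically at 30 °C in rich medium, and total RNA was labelled with Cy3 and hybridised to 1-colour arrays. The labels give no mating type or other allele for either strain, and the second deletion sample has red3 as the missing gene in 1 of its labels. It was kept in the deletion group by its title, and without it 7 of the 13 genes were higher and 4 lower, the same counts as with it.

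Fission yeast cells are of mating type M or P. M cells secrete M-factor, a small lipid-modified peptide that is cut from the products of several genes, and P cells secrete P-factor, an unmodified peptide cut from a single precursor. Each pheromone binds a receptor on cells of the opposite type, and the signal, together with starvation, leads to conjugation and then meiosis. Which type a cell has is set by the gene pair at the expressed mating-type locus, while further copies of these genes are kept silent in heterochromatin. In growing cells on rich medium the pheromone genes are known to be expressed at low levels.

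No array gene is described as red2, so the deletion could not be checked by the gene's name. A single array gene had a mean log2 value above 11 in wild type and below 9 in the deletion, a hypothetical serine- and proline-rich protein gene (chromosome I, 2603271 to 2604926), singled out after its values were seen. It read 41.9 and 26.8 in the deletion, against 31317.5 and 33962 in wild type. Signal was thus near the floor on both deletion arrays, that of the sample with the red3 label included. Neither its description nor the reference table used here ties this gene to red2 or red3. Across all genes, arrays of the same group correlated with r = 0.9964 for the deletion and r = 0.9975 for wild type, against 0.9338 to 0.9447 between groups. The array codes in the file headers are shared within a genotype in their first digits and differ between genotypes, so any batch that they mark and genotype cannot be told apart. Separate cultures are not stated for the arrays within a genotype, and p-values therefore cover no more than array-to-array spread, possibly a technical one. With 2 arrays per group, the number of arrays limits the precision. In RNA from whole cultures, fewer cells of a type and less RNA per cell cannot be told apart.

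Among the 13 genes, 7 were higher and 4 were lower in the red2 deletion at a limma adjusted p under 0.05, and 2 did not pass. Over all array genes 63.8% passed this test, 34% as higher and 29.8% as lower, so that most genes of any kind were called. With a trend of fold change with gene length removed, 5 were higher and 3 lower, beside 28.6% and 35.2% of all array genes. The groups did not overlap for any of the 13 genes: 8 lay above wild type and 5 below it on both deletion arrays. Over all array genes the groups did not overlap for 84.6% of genes, made up of 43.4% with the deletion above and 41.2% with it below. None of the 13 differed by 2-fold or more. All 13 had values on every array, and 1 of them, the mating-type polypeptide Mi, lay near the floor of the scale, which is taken here as a mean log2 value under 9 in both groups. The median log2 fold change of the 13 genes was 0.27, beside 0.01 for all array genes. With the length trend removed it was 0.06, beside -0.04 for all.

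**Figure D1:**
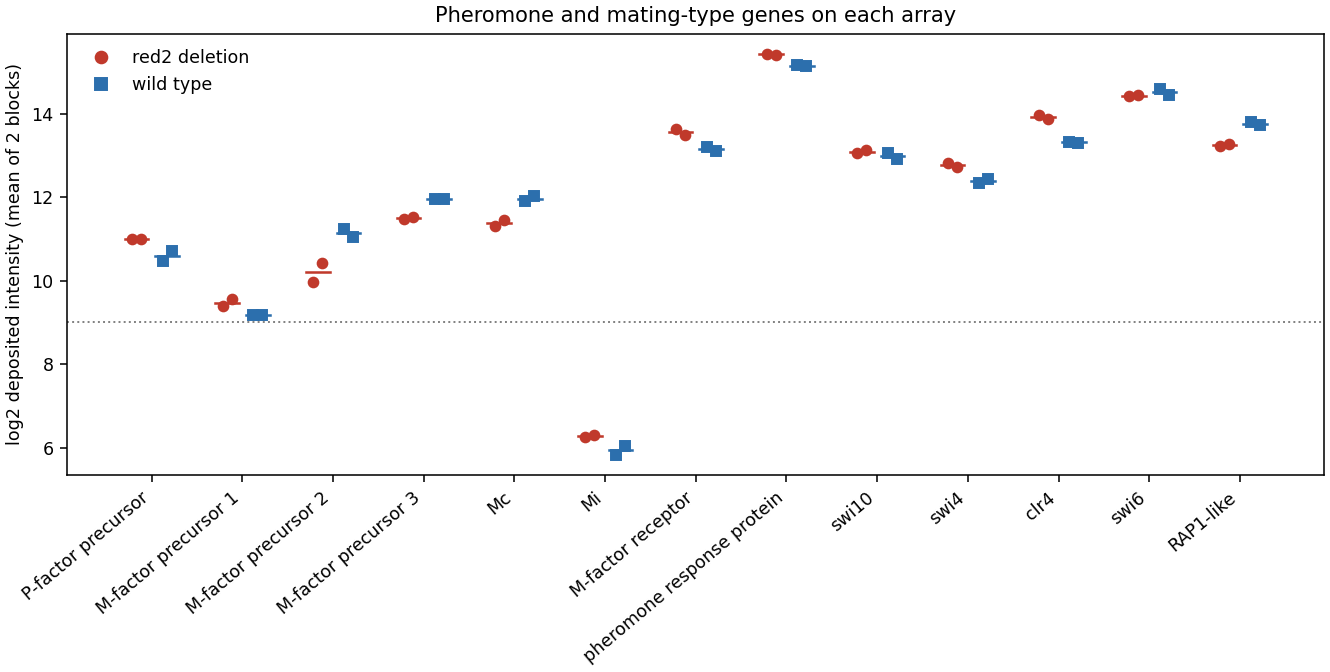
Log2 of the deposited intensity of each of the 13 genes, averaged over the 2 blocks of values per array, for the red2 deletion (circles) and wild type (squares). Short lines are group means, the dotted line marks a log2 value of 9, and intensities of different genes are not comparable with each other. Mi alone lies below the line, and M-factor precursor 2 has the widest gap between groups.

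The P-factor precursor (chromosome III, 986079 to 986684 in the coordinates of the array, whose build is not named) gives rise to the pheromone of P cells. Its intensity was 2054 and 2050.5 on the deletion arrays, against 1420.2 and 1679 on the wild-type arrays. Both deletion arrays lay above both wild-type arrays. On the log2 scale it was higher by 0.41 ± 0.08 (standard error from limma, 2 arrays in each group), or 1.33-fold (limma, adjusted p = 0.00683). The 2 blocks of values that each gene has on an array differed for this gene by up to 0.48 on the log2 scale. The median for all genes was 0.09 to 0.10. Single blocks overlapped between groups. In wild-type replicate 2 the first block read 1985.5, above the second block of deletion replicate 1, at 1937.2. The first block alone gave 0.45, which did not pass the test (adjusted p = 0.0891), and removing the gene length trend raised the value to 0.64.

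Of the 3 M-factor precursors, precursors 2 and 3 were lower and precursor 1 was higher in the deposited values, but the direction of precursor 1 turned with quantile normalization. M-factor precursor 2 (chromosome I, 2905179 to 2905355) had intensities of 1008 and 1366 in the deletion, against 2407 and 2106 in wild type. It was lower on both deletion arrays, with no overlap, and had the lowest fold change of the 13 genes. Its log2 fold change was -0.94 ± 0.15, or 1.92-fold lower in the deletion (adjusted p = 0.00234), with a 95% interval of -1.30 to -0.58. Both blocks gave nearly the same value, at -0.92 and -0.96. The change passed the test under each of the 17 alternatives run for it, with values between -1.16 and -0.57. The value was -0.72 without deletion replicate 1 and -1.16 without deletion replicate 2, and it was -0.60 with the gene length trend removed.

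M-factor precursor 3 (chromosome II, 620062 to 620254) stood at 2847 and 2936 in the deletion, against 3944 and 3958 in wild type. The arrays of each group lay close together, and the deletion arrays were the lower ones. It had a log2 fold change of -0.45 ± 0.05, or 1.37-fold lower (adjusted p = 0.000521). This value was near the median of all array genes of up to 200 bp, which was -0.44 over 30 genes, with a range from -0.88 to 0.06 between the lower and upper quartile. With the gene length trend removed, the value was -0.13 and did not pass (adjusted p = 0.0536). With cyclic loess normalization, which removes a trend with signal level, and the length trend removed as well, it was -0.03 (adjusted p = 0.582).

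M-factor precursor 1 (chromosome I, 4878300 to 4878499) had mean intensities of 670.3 and 751.7 in the deletion, against 583.7 and 583.3 in wild type. The deletion arrays lay above the wild-type arrays, and the wild-type means were almost the same. This gave a log2 fold change of 0.28 ± 0.07, a 1.22-fold difference (limma, adjusted p = 0.0119). The blocks behind these means, however, were far apart in wild type. In wild-type replicate 1 the first block read 416.1 and the second 818.9, while in wild-type replicate 2 the first read 797.7 and the second 426.6. On the deletion arrays the blocks stood at 730.9 and 614.7 in replicate 1 and at 751 and 752.3 in replicate 2. The spread between blocks was wider than that of 99.3% of array genes, and the near equality of the wild-type means came from averaging values that differed about as much in opposite order.

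With either block alone, M-factor precursor 1 did not pass the test. The first block alone gave 0.36 (adjusted p = 0.272) and the second 0.20 (adjusted p = 0.575). It did not pass when the prior variance was allowed to follow signal level (adjusted p = 0.115), and the value was -0.05 with quantile normalization (adjusted p = 0.411) and 0.13 with cyclic loess (adjusted p = 0.0791). With the length trend removed it was 0.60 (adjusted p = 0.000391). So the direction of this gene was not the same under all scalings.

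**Figure D2:**
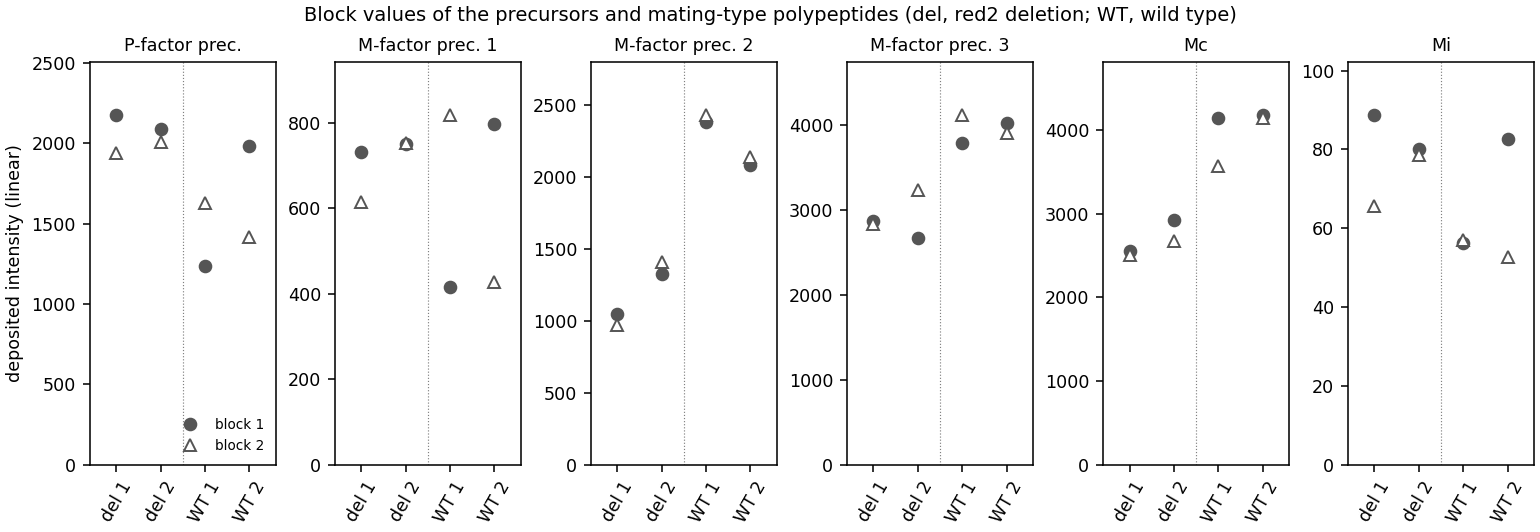
Deposited intensity, on a linear scale that starts at 0 and differs between panels, of both blocks of values on each array for the 4 pheromone precursors and the mating-type polypeptides Mc and Mi. The deletion arrays stand left of the dotted line and the wild-type arrays right of it. The blocks of M-factor precursor 1 stand at 416.1 and 818.9 on the first wild-type array and at 797.7 and 426.6 on the second, whereas those of M-factor precursor 2 nearly coincide on every array.

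The 3 M-factor precursors were also set against each other within each array, where scaling of the whole array cancels. The log2 difference of precursor 2 minus precursor 1 was 0.59 and 0.86 in the deletion, against 2.04 and 1.85 in wild type. The groups did not overlap, and the responses of the 2 genes differed by -1.22 on the log2 scale. For precursor 3 minus precursor 1 the difference in response was -0.73, and for precursor 2 minus precursor 3 it was -0.49. An exact permutation test over the 4 arrays gave p = 0.333 for each of these 3 pairs (two-sided, adjusted p = 0.333 over the 5 differences computed within arrays), which is the smallest p that 2 arrays against 2 can give, so none can pass. The difference between precursors 2 and 3 was -0.29 without deletion replicate 1, and that between precursors 3 and 1 was -0.38 with quantile normalization. The 3 genes encode the same mature peptide, so their probes could share signal, and probe sequences were not used here.

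The mating-type polypeptides are the products of the M-type gene pair. Mc, the M-specific transcription factor with an HMG box, is listed on chromosome II, 2073560 to 2074105. Its intensity was 2530 and 2798 in the deletion, against 3845 and 4159 in wild type. Both deletion arrays were lower, without overlap. Mc had a log2 fold change of -0.59 ± 0.07 (adjusted p = 0.000831). The blocks gave -0.61 and -0.57, and the change passed under each of the 17 alternatives run for it. With the gene length trend removed it was -0.34, and with cyclic loess and the length trend removed it was -0.26 (adjusted p at most 0.00885 over the alternatives).

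Mi (chromosome II, 2091664 to 2091792) encodes the other M-type polypeptide. Its intensities were 76.4 and 79.4 in the deletion, against 56.6 and 66 in wild type, which lie at the floor of a scale whose array medians were 21235 to 22104. The deletion arrays lay above the wild-type arrays, and the test passed (adjusted p = 0.011), but no size is read from these values. In wild type 0.3% of array genes had a lower mean value. The first block of wild-type replicate 2 read 82.6, as high as the deletion values. The difference did not pass with the first block alone (adjusted p = 0.159), with quantile normalization (0.812) or with a prior variance that follows signal level (0.447), and with cyclic loess the log2 value was -0.08 (adjusted p = 0.269).

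The array holds 1 gene each for Mc and Mi. The reference gene table (assembly ASM294v3) lists both at the locus mat1, which is the expressed one, and again at the silent locus mat3, with the same lengths of 546 and 129 bp in either place. Signal of the expressed and the silent copies can therefore not be told apart. No array gene is described as a P-specific mating-type polypeptide, so the P-type pair was not analysed here.

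Among the 13 genes, those of M cells and of P cells could be told by their descriptions. Of the 5 M-cell genes, M-factor precursors 2 and 3 and Mc were lower, and M-factor precursor 1 and Mi were higher, with the limits given above. Both P-cell genes, the P-factor precursor and the M-factor receptor, were higher. Further genes with a part in mating or pheromone signalling were looked at after their values were seen. The P-factor receptor, which M cells carry, had intensities of 9487 and 9284 in the deletion, against 8486 and 8974 in wild type, a log2 fold change of 0.11 ± 0.05 that did not pass (adjusted p = 0.132). The P-cell gene sxa1, which encodes an aspartic protease, did not pass either, at 0.07 ± 0.06 (adjusted p = 0.331). A gene described as a serine carboxypeptidase of the mating response was higher by 0.28 ± 0.06 (adjusted p = 0.00875), unlike M-factor precursors 2 and 3 and Mc. The array gives no symbol for it and none was looked up, so it was counted with neither cell type here. The M-cell side may thus lack a gene that was higher. A gene described as a pheromone receptor transcription activator, also without a symbol, was placed on neither side. Its groups overlapped, and its value of 0.23 ± 0.13 did not pass (adjusted p = 0.155). With so few genes on either side, no median is compared between M-cell and P-cell genes.

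The M-factor precursors and Mi are among the shortest genes of the array, at 129 to 200 bp, while the P-factor precursor spans 606 bp. Within arrays, M-factor precursor 2 minus the P-factor precursor was -1.03 and -0.59 in the deletion, against 0.76 and 0.33 in wild type. Mc minus the P-factor precursor was 0.30 and 0.45 in the deletion, against 1.44 and 1.31 in wild type. In both cases the groups did not overlap, and the differences in response were -1.35 and -0.998, or -1.24 and -0.977 with the length trend removed. The exact permutation p was 0.333 for both, again the smallest that can be given. Only these M-cell genes, which had the lowest fold changes of the M-cell genes, were set against the P-factor precursor. M-factor precursors 1 and 3 had log2 fold changes of 0.28 and -0.45, beside 0.41 for the P-factor precursor. With the length trend removed these were 0.60 and -0.13, beside 0.64. The 2 pairs therefore do not stand for all M-cell genes.

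The M-factor receptor (chromosome I, 2826062 to 2827159), a membrane receptor of P cells, had intensities of 12755 and 11558 in the deletion, against 9429 and 8751 in wild type. Both deletion arrays were higher, with no overlap. This was a log2 fold change of 0.42 ± 0.07, a 1.34-fold difference (adjusted p = 0.00299). Both blocks showed it, at 0.37 and 0.47, and it passed under each of the 16 alternatives run, with values from 0.35 to 0.49. Removal of the length trend left it at 0.42. The gene overlaps on the array with a gene of histidine synthesis, which stood at -0.16 ± 0.06 and did not pass (adjusted p = 0.065).

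A gene described as a putative pheromone response and mating-type determination protein (chromosome I, 5393059 to 5395614) read 44354 and 43398 in the deletion, against 36716 and 35919 in wild type. The deletion arrays were the higher ones. Its log2 fold change of 0.27 ± 0.05 (adjusted p = 0.00376) turned to -0.02 with the length trend removed (adjusted p = 0.737). The role named by the array was not checked here.

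Mating-type switching copies a silent gene pair into the expressed locus. The switching gene swi4 encodes a homologue of a mismatch repair protein, and the reference table lists it under the symbol msh3. It lies on chromosome I, 2848102 to 2851151. Its intensity was 7173 and 6742 in the deletion, against 5205 and 5516 in wild type. The deletion arrays lay above the wild-type arrays, with a log2 fold change of 0.38 ± 0.06 (adjusted p = 0.0023). At 3050 bp it is the longest of the 13 genes, and with the length trend removed the value was 0.06 (adjusted p = 0.378).

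The switching gene swi10 (chromosome II, 2678228 to 2679216) encodes a DNA excision repair protein. Its values of 8483 and 8915 in the deletion, against 8455 and 7714 in wild type, lay close together, since the lower deletion value and the higher wild-type value nearly met. The log2 fold change of 0.11 ± 0.06 did not pass (adjusted p = 0.193), and its 95% interval ran from -0.05 to 0.27. The second block alone gave 0.20 (adjusted p = 0.0376), and cyclic loess with the length trend removed gave 0.24 (adjusted p = 0.0138).

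The silencing genes went in different directions. The level of clr4 (chromosome II, 376274 to 377746), which encodes the histone H3 lysine methyltransferase of heterochromatin, was 15932 and 14857 in the deletion, against 10267 and 10083 in wild type. It was higher on both deletion arrays. It rose by 0.60 ± 0.06 on the log2 scale, a 1.51-fold difference (adjusted p = 0.00033), the highest of the 13 genes. It passed under all 18 alternatives run for it, with values from 0.47 to 0.66.

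The level of swi6 (chromosome I, 1695177 to 1696163), which encodes the heterochromatin protein that binds the mark made by Clr4, was 21889 and 22278 in the deletion, against 24564 and 22469 in wild type. The lower wild-type array nearly met the deletion arrays. The log2 fold change of -0.09 ± 0.06 did not pass (adjusted p = 0.24), with a 95% interval of -0.24 to 0.06. It did not pass under any of the 18 alternatives either, the lowest adjusted p being 0.063.

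The array compares 1 gene with RAP1 of budding yeast (chromosome II, 3057444 to 3059654). Its description names a Myb DNA-binding domain and, by similarity, a possible part in telomeric and mating-type silencing. The RAP1-like gene read 9639 and 9942 in the deletion, against 14185 and 13570 in wild type. Both deletion arrays were lower, without overlap. The log2 fold change was -0.50 ± 0.05, or 1.42-fold lower (adjusted p = 0.000456). Since this gene spans 2211 bp and longer genes tended to be higher, the value fell further with the length trend removed, to -0.75 ± 0.05, and it passed under each of the 17 alternatives run.

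**Figure D3:**
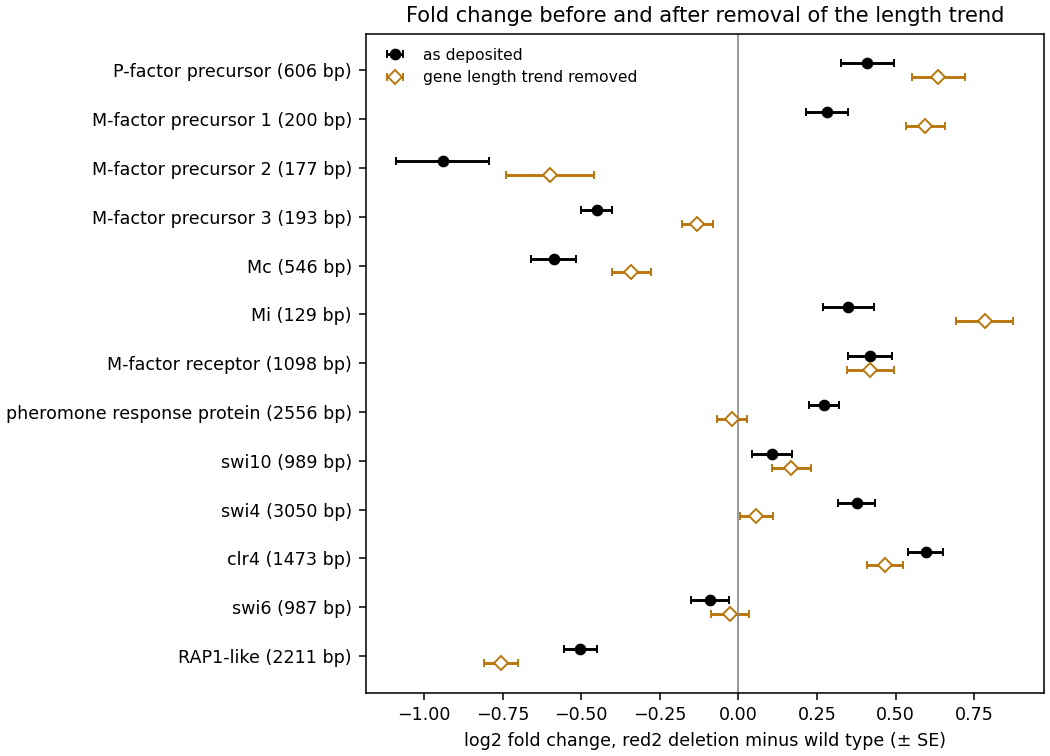
Log2 fold change of the 13 genes, red2 deletion minus wild type, with limma's standard error, for the values as deposited (filled circles) and after removal of the gene length trend (open diamonds). M-factor precursor 2, Mc and the RAP1-like gene stay below 0 in both, and the P-factor precursor, the M-factor receptor and clr4 stay above 0, while the pheromone response protein moves from 0.27 to -0.02.

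Gene length and signal level bear on these values. Across all 4997 array genes the fold change rose with gene length (Spearman rho = 0.445, a description, as all points share the same 4 arrays). The median log2 fold change was -0.30 for the 101 genes of up to 300 bp, -0.23 for the 734 genes of 301 to 600 bp, -0.11 for the 1685 genes of 601 to 1200 bp and 0.12 for the 2134 genes of 1201 to 3000 bp. M-factor precursors 1, 2 and 3 and Mi have 200, 177, 193 and 129 bp. Against the quartile range of -0.88 to 0.06 for genes of up to 200 bp, M-factor precursor 2 lay just below, precursor 3 within and precursor 1 above, while no size is read for Mi.

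Dim genes also tended to be higher in the deletion. For the 81 genes with a mean log2 value of up to 9 over all arrays, the median log2 fold change was 0.34, and for the 35 genes between 9 and 10, where M-factor precursor 1 lies, it was 0.20. Quantile normalization brought these medians to -0.09 and -0.05. Between 10 and 11, where the P-factor precursor and M-factor precursor 2 lie, the median of 64 genes was 0.09, and between 11 and 12, where Mc and M-factor precursor 3 lie, that of 187 genes was -0.06. The part of length and of signal level in the values of single genes was not tested beyond these alternatives.

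**Figure D4:**
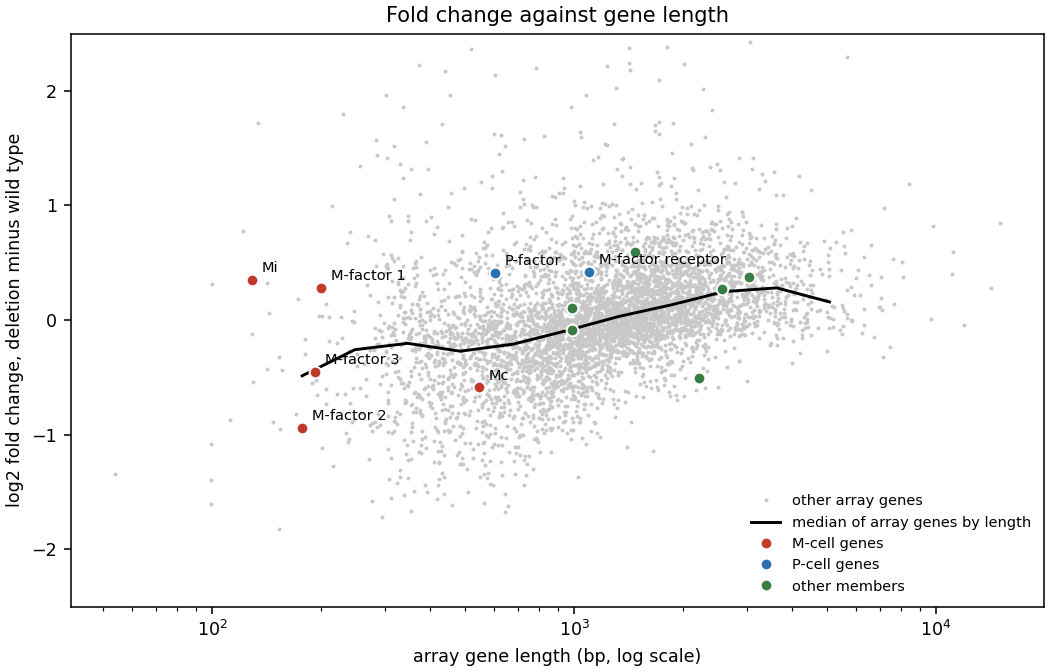
Log2 fold change, red2 deletion minus wild type, against gene length on a log axis for the array genes, leaving out 11 genes beyond a log2 fold change of 2.5 in size. The line joins medians of genes binned by length, and large points are genes of M cells, of P cells and the other members. M-factor precursor 3 lies on the line at -0.45, precursor 2 and Mc lie below it, and precursor 1, the P-factor precursor and the M-factor receptor lie above it. Mi is drawn too, but lies near the floor of the scale.

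Other genes of mating and pheromone signalling were taken from the descriptions by a list of words and symbols. Of 27 such array genes, 14 were higher, 2 were lower and 11 did not pass, which is 59.3% called beside 63.8% of all array genes. Their median log2 fold change was 0.26. With the gene length trend removed, 8 were higher and 4 lower, and the median was 0.06. The genes with the smallest p among the higher ones were a protease with a possible part in pheromone response, a gene like FIG1 of budding yeast, mei2 and isp4.

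The protease read 18901 and 19813 in the deletion, against 10121 and 10067 in wild type (log2 fold change 0.94 ± 0.05, adjusted p = 7.22e-05). The FIG1-like gene, whose budding yeast counterpart acts in mating, read 8257 and 8352 in the deletion, against 5495 and 5608 in wild type (0.58 ± 0.05, adjusted p = 0.000218). The values of mei2, an RNA-binding protein needed to enter meiosis, and isp4, a gene of sexual differentiation, were 0.77 ± 0.07 and 0.75 ± 0.08. These 4 genes, picked by their small p, had no overlap between groups, as was so for 84.6% of all array genes.

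The 2 lower genes of the list were ste4, an adaptor of the pheromone-activated kinase cascade, and a kinase described as a negative regulator of sexual conjugation and meiosis. The level of ste4 was 2552 and 3047 in the deletion, against 4559 and 4836 in wild type (-0.75 ± 0.09, adjusted p = 0.000849). The negative regulator stood at 32133 and 32584 in the deletion, against 39325 and 39636 in wild type (-0.29 ± 0.05, adjusted p = 0.00277). Of the kinases of the cascade, byr1 (-0.16 ± 0.07) and spk1 (0.11 ± 0.05) did not pass. A gene described as a pheromone receptor transcription activator overlapped between groups, at 1061 and 1355 in the deletion, against 958.8 and 1088 in wild type (adjusted p = 0.155).

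The genes near the 13 members were looked at by their coordinates on the array. Within 10 kb lay 105 other array genes, of which 24 were higher, 37 lower and 44 did not pass. That is 58.1% called, near the 63.8% of all array genes (34% higher, 29.8% lower). Around Mc and Mi, which lie in the mating-type region, 2 of 13 neighbours were higher, 7 lower and 4 did not pass, with a median of -0.25. That is 69.2% called, near the share of all array genes, but the split by direction differed, with more of these neighbours lower than higher. With the length trend removed, 7 were again lower and 2 higher, beside 35.2% and 28.6% of all array genes. This split was not tested. Next to Mc lay a gene for a GTPase activating protein, at -0.03 ± 0.07 (adjusted p = 0.764), and one for a flavin oxidoreductase, which rose by 0.56 ± 0.07. Next to Mi lay an acidic ribosomal protein gene (-0.42 ± 0.05) and a gene for a transmembrane protein (-0.59 ± 0.08), both lower. Neither gene directly next to Mc passed the test as lower, whereas Mc did. Farther from Mc but within 10 kb, a hypothetical gene (-0.80 ± 0.08) and the translation factor gene sui1 (-0.67 ± 0.05) were lower too. A putative urea transporter gene was higher there (0.70 ± 0.05). Mc was thus not the only lower gene on this stretch of the array, though the farther genes were picked after their values were seen. Its expressed and silent copies cannot be told apart, so its signal cannot be assigned to 1 position.

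A hypothetical gene of 303 bp lies 219 bp from M-factor precursor 2, on chromosome I, 2905574 to 2905876. It read 84.2 and 62.6 in the deletion, against 22.6 and 15.3 in wild type. The deletion arrays were the higher ones and the test passed (adjusted p = 0.000529), opposite in direction to the precursor, but all values lie near the floor and no size is read. The gene on the other side of precursor 2 did not pass, at -0.06 ± 0.08.

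Most genes nearest to the other precursors did not pass. Beside the P-factor precursor were the genes of mitochondrial ribosomal protein S13 (-0.12 ± 0.05, not past the threshold) and of uridylate kinase (-0.22 ± 0.06, adjusted p = 0.0245). The uridylate kinase gene did not pass without deletion replicate 1 (0.0512), without wild-type replicate 1 (0.0841) or without wild-type replicate 2 (0.08), these being adjusted p, and it stood at 0.02 with the length trend removed. Beside M-factor precursor 1 were the ribosomal protein L3 gene (0.02 ± 0.05, not past the threshold) and a gene for a phospholipid transfer protein (-0.29 ± 0.05, adjusted p = 0.0035). Neither gene next to M-factor precursor 3 passed, at -0.04 ± 0.05 each. Of the 15 nearest genes of the other 7 members, 2 were higher, 3 lower and 10 did not pass. Over all array genes 34% were called higher and 29.8% lower. Neighbours that differed at least 2-fold were found near swi4 (a questionable reading frame, -1.04 ± 0.06), clr4 (a very hypothetical reading frame, -1.37 ± 0.10) and the RAP1-like gene (a putative transcriptional regulator, -1.20 ± 0.05).

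**Figure D5:**
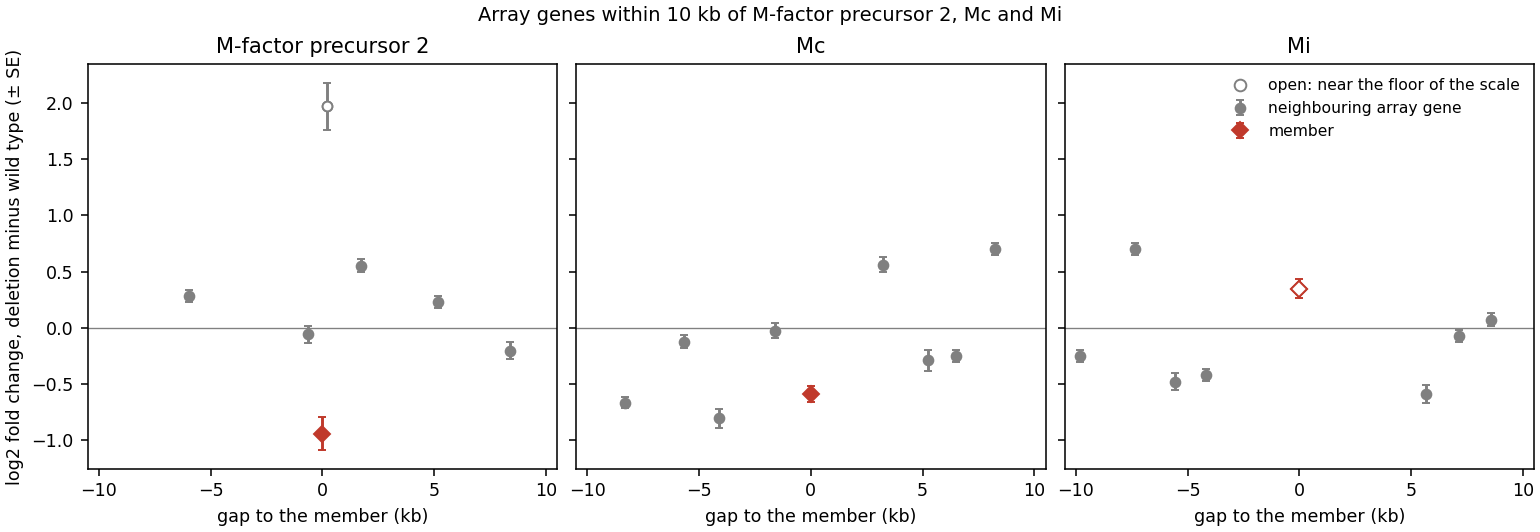
Log2 fold change, red2 deletion minus wild type, with limma's standard error, of array genes within 10 kb of M-factor precursor 2, Mc and Mi, against the gap to that gene in kb. Diamonds at 0 are the named genes, circles their neighbours, and open symbols lie near the floor of the scale. The neighbours lie on both sides of 0 in each panel.

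The genes whose values over the 4 arrays were most like those of M-factor precursor 2, by Pearson correlation of log2 values, were a hypothetical gene (r = 0.99993) on chromosome III, 1800184 to 1801143, a regulatory subunit of the 26S proteasome (chromosome I, 4518922 to 4519837), and a gene similar to cid16 (chromosome I, 1628224 to 1630293). The other two had r = 0.99989 and r = 0.99981, and 207 of the 4996 other genes had r of at least 0.99. Over only 4 arrays, r is given as a description. Their log2 fold changes, in this order, were -0.37 ± 0.07, -0.36 ± 0.07 and -0.09 ± 0.05, the last not past the threshold.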

How the data were processed

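The authors deposited linear intensity values made with RMA, which the submitters' processing notes name without a version; its steps and the genome build were not given in the sources used here. Pair tables deposited by the authors add a ratio, deletion over wild type, that matched the intensity quotient on 19988 lines (tolerance 1e-06). Samples were grouped by title. Every gene has 2 blocks of values per array, of unstated meaning, averaged here on the log2 scale. Intensities ran from 8.19 to 65028.

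Tests used limma 3.58.1 under R 4.3.3 (lmFit, eBayes) with genotype as the only term over 4997 genes, two-sided, Benjamini-Hochberg threshold 0.05. Values after ± are its standard errors. Gene length is the array span, introns included, and its trend was removed per array by loess (span 0.5). In simulated data for deletion against wild type (4997 genes, 200 changed), 98% of 1.5-fold and 100% of 2-fold changes were recovered. The simulated noise was independent between genes and held no trend with length or level and no block differences. These shares therefore do not tell how reliable the calls are in the real data. Replicate numbers were not used as pairs in the main fit, since replicate 1 of both groups shared no clear deviation (correlation -0.041). That value cannot show whether samples of the same number, which the pair tables set side by side, were paired in the experiment.

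Named were all members, up to 4 genes of the mating list per direction by smallest p, neighbours that were nearest or passed at 2-fold, and the 3 genes most like M-factor precursor 2; of the nearest genes of the 7 other members, most are given as counts. Genes of the list named beyond these (byr1, spk1, the receptor activator, the P-factor receptor, sxa1, the serine carboxypeptidase) were picked after their values were seen. Further neighbours of Mc were picked in the same way. From 44 hits of the list's words, 17 were dropped, such as ubiquitin conjugation genes. Members and lists were chosen with earlier results of these data known.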

Additional observations from a re-analysis of the deposited data

How the results depend on the processing

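Cyclic loess normalization, alone and with the gene length trend removed, was chosen after seeing the data. Of 223 values of the 13 genes under up to 18 alternatives, 205 kept their direction and their side of the threshold, 12 no longer passed, 2 newly passed and 4 turned. Those that turned were M-factor precursor 1 with quantile normalization (-0.053), Mi with cyclic loess (-0.078) and the pheromone response protein with the length trend removed (-0.020) and with cyclic loess as well (-0.021). Among neighbours, uridylate kinase turned with the length trend removed (0.022, and 0.030 with cyclic loess as well), the ABC transporter beside the M-factor receptor likewise (-0.192 and -0.167), and the hypothetical gene next to M-factor precursor 2 that did not pass turned with cyclic loess and the length trend removed (0.173). The cause was not tested.

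The counts of 7 members higher and 4 lower became 2 and 0 without the dimmest 25% of genes, which removes most members by construction, and 0 and 0 at 2-fold or more. The higher count was 4 with the first block alone. Over all genes, the 1699 higher and 1487 lower became 136 and 127 at 2-fold or more. The mating list had 7 higher and 1 lower without the dimmest genes, and 8 and 4 with the length trend removed. With the replicate number as a block, the members' counts were 7 and 4 and the list's 15 and 2, as with the deposited pair ratios. Leaving out any array left 7 and 4. A lone remaining array was taken to have the spread of the opposite group. Adding 32 before log2, centring arrays on their median, the robust prior and the longest of overlapping genes changed no call on a member, though the last leaves out the M-factor receptor. The 3 differences between M-factor precursors kept their sign under each alternative run for them. Signal near the floor limits Mi.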
